A study of Mus musculus with 24 samples.

Results

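The data described here are the arrays of HC11 cells in which the long noncoding RNA *mPINC* was targeted by siPINC1.0/1.6 and which were then treated with lactogenic hormones (+LH). They are 3 arrays of siPINC1.0/1.6 and 3 of the control siRNA, siNEG, 6 of the 24 arrays of the series, chosen by their labels alone. HC11 is a mouse mammary epithelial line that came from a mid-pregnant BALB/c mouse, so every group is the same line, and the siRNA is the only labelled difference between these 6 arrays. Both groups received 10 nM siRNA and the lactogenic hormones hydrocortisone, insulin and prolactin. siPINC1.0/1.6 is a pair of siRNAs against the splice forms *mPINC1.0* and *mPINC1.6* that leaves the *DCR2* forms untargeted, and siNEG is a commercial non-targeting siRNA. How long the cells of these arrays had hormones is not given in the sources used here. Arrays used beside them were 3 of +LH cells with siPINC, a pair of siRNAs against all splice forms, 2 each of siNEG and siPINC1.0/1.6 cells without lactogenic hormones (−LH), and 3 each of +LH cells transduced with the LeGO-GFP or the LeGO-1.0/1.6 lentivirus. The study calls the +LH arrays biological triplicates and the −LH arrays duplicates, and all come from 1 cell line, so the p-values measure the spread between these cultures and arrays.

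*mPINC* is a noncoding RNA that rises in the mammary epithelium during pregnancy and that was studied for its association with Polycomb repressive complex 2 (PRC2), which silences genes by methylating histone H3. Prolactin acts on mammary epithelial cells through its receptor, the kinase JAK2 and the transcription factors STAT5A and STAT5B, which switch on milk protein genes such as *Csn2*, the gene of β-casein. Confluent HC11 cells given lactogenic hormones stop dividing and make β-casein, and so serve as a culture model of the secretory cell. The comparison asks which transcripts differ when *mPINC1.0* and *mPINC1.6* are targeted in cells that are being driven into this state.

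The 6 arrays had between 24020 and 29055 of 55681 probes well above background, and replicates of a group correlated at Pearson's r of 0.975 to 0.990 over all probes. siNEG replicate 1 (24020 probes) and siPINC1.0/1.6 replicate 3 (24261 probes) were the dimmest, and siNEG replicate 1 was the only one of the 9 +LH knockdown arrays on another slide. Counts below are therefore also given without these arrays where that matters. Of the luminal epithelial markers 4 of 14 (*Krt19*, *Esr1*, *Pgr* and *Foxa1*) were well above background on none of the 6 arrays, while each of the 11 basal markers was on at least 1. The adipocyte markers *Adipoq*, *Lep*, *Retn* and *Cfd* and the endothelial markers *Cdh5*, *Tek* and *Emcn* were above it on none either.

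The array does not show a lower level of *mPINC* in these cells. Its probe, in the gene at chr1:73391385-73407569 (GRCm38), read 4.96, 4.93 and 4.72 on the log2 scale in siNEG cells and 5.25, 5.11 and 4.83 in siPINC1.0/1.6 cells, well above background on 2 of 3 arrays in each group. The groups overlapped, and the difference was 0.19 (SE 0.19, adjusted p = 0.713 by limma). In −LH cells, where siNEG cells read 7.44 on average, the same siRNAs lowered the probe to 6.33 (log2 fold change −1.11, SE 0.11, adjusted p = 0.0366). The hormone-treated siNEG arrays thus read the probe close to background, and which splice forms it detects is not given in the sources used here. With siPINC in +LH cells the probe averaged 4.37, well above background on 1 of 3 arrays. That was a difference of −0.50 from siNEG (SE 0.19, adjusted p = 0.428 by limma). The siPINC1.0/1.6 arrays lay 0.69 above the siPINC ones (adjusted p = 0.222 by limma). The study reports a knockdown of *mPINC* by qPCR after siRNA transfection. The directions below are those of the arrays labelled siPINC1.0/1.6 against the arrays labelled siNEG.

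Across all probes, 2140 of 55681 (3.84%) were called different between siPINC1.0/1.6 and siNEG, meaning an adjusted p under 0.05, of which 1165 (2.09%) rose and 975 (1.75%) fell. Most changes were small, the median size of a called change being 0.54 on the log2 scale, and 392 probes passed a 2-fold difference, 294 of them higher. The series matrix values, the authors' own normalization, gave 65.8% higher among 1072 called probes against 54.4% here. Of 16194 probes for intergenic noncoding transcripts 81 rose and 198 fell. Taking 1 probe for each of 20169 gene symbols, 6.42% were called, 786 genes (3.9%) higher and 509 (2.52%) lower, with a median over all genes of −0.01, and these shares are the background for the counts of gene groups that follow. Groups that do not overlap are common at this size: on 18.7% of all probes every array of one group lay above every array of the other.

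The largest rise among named probes was that of *Krt6b*, a keratin of stressed and wounded epithelium at chr15:101676023-101680293. It read 8.25, 8.29 and 8.40 in siNEG cells and 11.50, 11.45 and 11.41 in siPINC1.0/1.6 cells, a rise of 3.14 on the log2 scale or 8.82-fold (SE 0.09, adjusted p = 0.00015). The 6 values fell into 2 tight sets, though a lack of overlap was a condition for this ranking. *Ly6a*, which encodes the stem cell antigen Sca-1, read 9.54, 9.42 and 9.41 against 11.32, 11.06 and 11.18, a rise of 1.73 (SE 0.10, adjusted p = 0.000436). *Gsta4*, a glutathione transferase that clears lipid peroxidation products, read 7.86, 7.66 and 7.85 against 9.42, 9.35 and 9.40, a rise of 1.6 (SE 0.06, adjusted p = 0.000246). *Tmprss4*, a membrane serine protease, rose by 2.03, from 8.45, 8.34 and 8.59 to 10.55, 10.49 and 10.44 (SE 0.07, adjusted p = 0.000226). All 4 genes kept their call under each alternative that leaves out 1 array or both dim arrays.

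**Figure D1:**
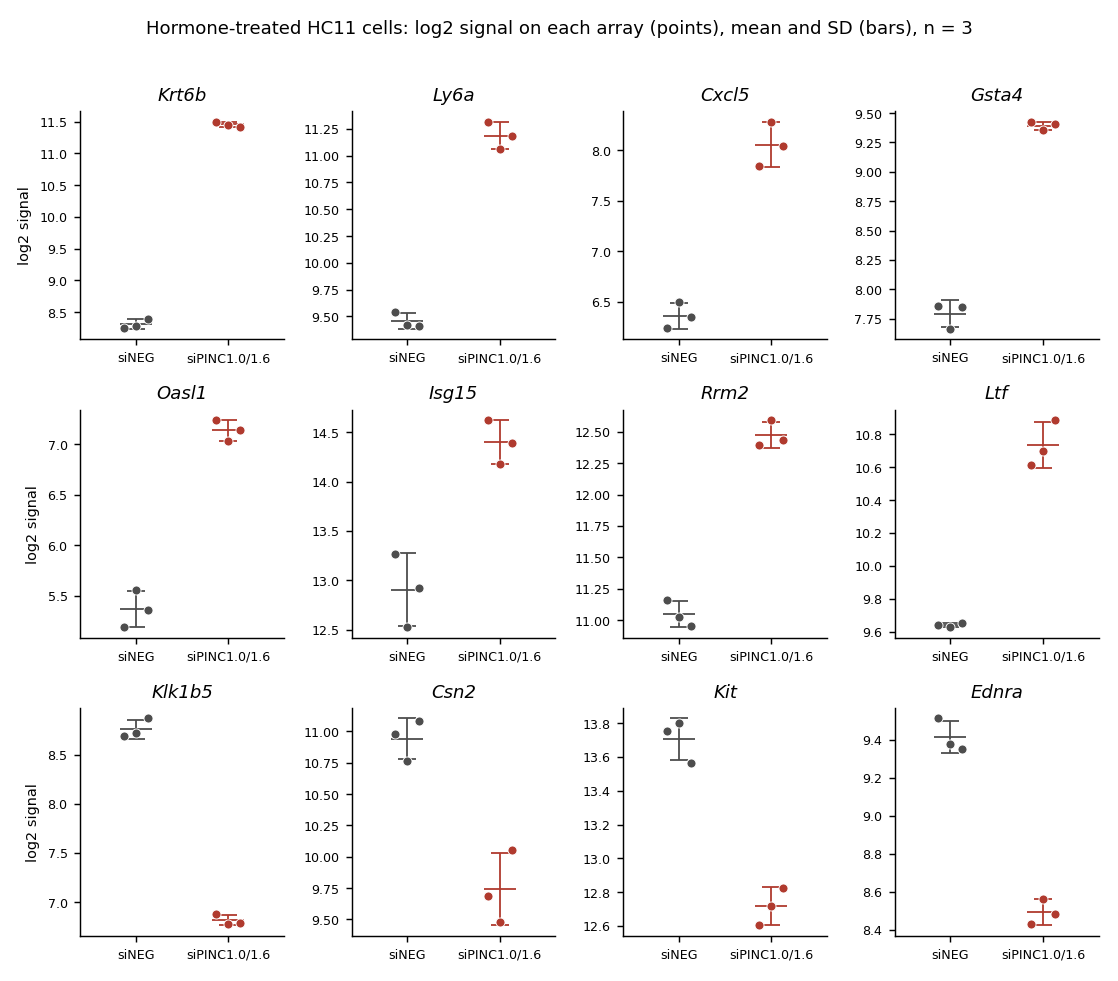
Log2 quantile normalized signal of 12 genes on each of the 3 siNEG and 3 siPINC1.0/1.6 arrays of +LH cells, with the mean and SD of each group; the vertical axes are log scales, differ between panels and do not start at 0. The groups do not overlap in any panel, which was a condition for naming the genes with the largest changes and so is no result for them. The changes run from a rise of 3.14 (*Krt6b*) to a fall of 1.94 (*Klk1b5*).

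Several of the other large rises started from probes not well above background in siNEG cells, on none of the 3 arrays, and for those a lower bound is given, the mean of the siPINC1.0/1.6 arrays against the dimmest signal counted as above background on each siNEG array or the probe's own value where that is higher. *Akr1c18*, whose enzyme inactivates progesterone, was at least 5.69-fold higher (4.68, 3.36 and 3.83 against 7.05, 6.88 and 6.73, adjusted p = 0.00482). *Wfdc21*, a secreted WAP-domain protein gene, was at least 3.23-fold higher (3.94, 4.01 and 4.18 against 6.21, 6.12 and 5.99, adjusted p = 0.000298). *Xpnpep2*, an aminopeptidase of the cell membrane, was at least 3.00-fold higher and *Dynap* at least 1.91-fold higher. *Stfa1*, a cysteine protease inhibitor of the stefin A cluster, was well above background on each siPINC1.0/1.6 array and on no siNEG array, at least 1.5-fold higher (1.95, 1.89 and 1.92 against 4.57, 4.88 and 5.46, adjusted p = 0.000717). Its neighbour in the cluster, *Cstdc5*, was at least 3.06-fold higher, but that call ended without siNEG replicate 2 or any 1 siPINC1.0/1.6 array (highest adjusted p = 0.0898), and near-identical stefin genes may share signal. Also among the largest rises were *Mab21l4* (1.94, adjusted p = 0.000839) and *Aunip* (1.94, adjusted p = 0.00246), whose protein binds aurora kinase A.

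Among the falls outside the kallikrein cluster, *Agr3*, a protein disulfide isomerase family member, read 9.12, 9.06 and 9.01 in siNEG and 7.38, 7.35 and 7.23 in siPINC1.0/1.6 cells. Its fall of 1.74 (SE 0.09, adjusted p = 0.00033) was 3.34-fold. *Glod5*, a glyoxalase-domain gene, fell by 1.46 (8.39, 8.45 and 8.41 against 6.99, 6.94 and 6.93, adjusted p = 0.00015), with an SD in each group far smaller than the change. *Lyzl4*, a lysozyme-like gene, fell by 1.57 on the probe chosen for it (adjusted p = 0.0137) and by 1.48 on another (adjusted p = 0.000998). *Mug1*, a protease inhibitor of the macroglobulin family, fell by 1.56 (adjusted p = 0.00092). *Rasl11b*, a small GTPase-like gene, fell by 1.41 (adjusted p = 0.0053). *Itga8*, an integrin subunit, was not well above background in siPINC1.0/1.6 cells and was at least 2.55-fold lower (5.50, 5.68 and 5.74 against 3.93, 3.92 and 4.02). *Kit*, the receptor of stem cell factor and a marker of luminal progenitors, read 13.75, 13.80 and 13.56 against 12.60, 12.72 and 12.83, a fall of 0.99 (SE 0.09, adjusted p = 0.00253).

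Most glandular kallikreins fell together. These secreted serine proteases lie side by side on chromosome 7, and some process growth factor precursors. Of 14 measured genes 10 fell and none rose, against 2.52% of all genes lower, with a median log2 fold change of −1.52 beside −0.01 over all genes. *Klk1b5* read 8.69, 8.72 and 8.87 in siNEG cells and 6.88, 6.78 and 6.79 in siPINC1.0/1.6 cells, a fall of 1.94 (SE 0.12, adjusted p = 0.000524). *Klk1b26* read 7.31, 7.51 and 7.47 against 5.51, 5.44 and 5.12, a fall of 2.07 (SE 0.17, adjusted p = 0.00131). *Klk1*, the tissue kallikrein proper, read 7.16, 7.23 and 7.29 against 5.74, 5.44 and 5.47, a fall of 1.68 (SE 0.19, adjusted p = 0.00501). In all 3 genes every siPINC1.0/1.6 array lay more than 1 log2 unit below every siNEG array. *Klk1b4* (1.74), *Klk1b3* (1.54) and *Klk1b24* (1.40) fell as well, and *Klk1b11* fell to below background, at least 1.11-fold. The call of *Klk1b8* (−1.52) ended whichever 1 of the 6 arrays was left out (highest adjusted p = 0.131), and that of *Klk1b22* (−1.43) without siNEG replicate 1, siNEG replicate 2 or siPINC1.0/1.6 replicate 1 (highest adjusted p = 0.056). The tenth gene with a call, *Klk1b16*, was not well above background in either group. The count of 10 became 7 or 8 when 1 array was left out, 5 without both dim arrays and 5 by the methods' t-test.

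The kallikrein genes are recent copies of one another, so that a probe may read its neighbours' transcripts, and the 14 values are not 14 independent measurements. The likeness can be seen in the promoters, taken from RefSeq (GRCm38.p6) as the 300 bases around each start, most of them upstream. All 14 windows lie within 275 kb of chromosome 7, and their identity to that of *Klk1b5* runs from 60% (*Klk1*) to 91% (*Klk1b4*). The windows of *Klk1b5* (chr7:44216224-44216523, plus strand) and *Klk1b4* (chr7:44207183-44207482, plus strand) are shown with the bases in capitals that are not aligned to an identical base in the other window, 27 in each.
Klk1b5: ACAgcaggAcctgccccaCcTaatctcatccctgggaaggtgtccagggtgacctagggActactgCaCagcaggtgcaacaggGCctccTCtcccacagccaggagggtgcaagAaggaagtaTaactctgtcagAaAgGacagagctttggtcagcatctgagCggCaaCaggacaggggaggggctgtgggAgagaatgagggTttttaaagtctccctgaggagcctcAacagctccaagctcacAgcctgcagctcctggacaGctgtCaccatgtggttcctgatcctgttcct
Klk1b4: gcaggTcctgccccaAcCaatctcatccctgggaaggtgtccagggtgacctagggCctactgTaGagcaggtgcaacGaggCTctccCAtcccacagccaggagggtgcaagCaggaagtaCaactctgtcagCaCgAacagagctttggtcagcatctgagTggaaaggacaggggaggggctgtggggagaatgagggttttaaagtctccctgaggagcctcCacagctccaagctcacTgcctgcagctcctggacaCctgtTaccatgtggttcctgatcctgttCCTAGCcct
No window of the 14 held the STAT motif TTCNNNGAA, the AP-1 motif TGANTCA, the palindromic glucocorticoid response element or the interferon response element on either strand. Over all genes 9.55%, 8.97%, 0.0111% and 3.99% of windows held them, and a window without these letters says nothing of the factors.

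Interferon-stimulated genes moved the other way. These are the antiviral genes that cells switch on after sensing interferon. Of 25 measured 17 rose and none fell, beside 3.9% of all genes higher, all 25 had a positive log2 fold change, and their median was 1.03. *Isg15*, a ubiquitin-like protein joined to other proteins, read 13.27, 12.52 and 12.92 in siNEG cells and 14.62, 14.18 and 14.39 in siPINC1.0/1.6 cells, a rise of 1.49 (SE 0.19, adjusted p = 0.00892). *Oasl1*, of the oligoadenylate synthetase family, read 5.19, 5.55 and 5.36 against 7.24, 7.03 and 7.14, a rise of 1.77 (SE 0.11, adjusted p = 0.000524). *Irf7*, the transcription factor that amplifies the response, read 8.24, 8.07 and 8.35 against 9.48, 9.25 and 9.25, a rise of 1.11 (SE 0.10, adjusted p = 0.00178). The siNEG arrays of *Isg15* spread widely, but the highest of them stayed below the lowest siPINC1.0/1.6 array, and the groups of the other genes were apart as well. *Bst2*, which tethers budding viruses, rose by 1.54 (adjusted p = 0.00859), *Zbp1*, a sensor of Z-form nucleic acids, by 1.6 (adjusted p = 0.00907), and *Ifit1*, which binds viral RNA, by 1.19 (adjusted p = 0.0054). *Oas2*, a maker of the messenger 2′-5′ oligoadenylate, rose by 1.59, a call that ended without siNEG replicate 2 or siPINC1.0/1.6 replicate 1 (highest adjusted p = 0.0574). Of the components that carry the signal, *Stat2* (0.73) and *Irf9* (0.43) rose. The count of 17 ranged from 11, without siPINC1.0/1.6 replicate 1, to 16 when 1 array was left out. It was 12 without siNEG replicate 2, 13 without both dim arrays, and 5 by the methods' t-test.

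Many of their promoters held the same motif. The interferon response element, a repeat of TTTC with any pair of bases between the copies, on either strand, was in the window of 12 of the 20 interferon genes with a RefSeq window (60%) and of 3.99% of all 27025 genes, and of 1 of 24 proliferation genes. The windows of *Isg15* (chr4:156200769-156201068, minus strand) and *Ifit1* (chr19:34640639-34640938, plus strand) are shown because both genes rose; capitals mark the motif, 3 overlapping matches in *Isg15* and 2 separate ones in *Ifit1*.
Isg15: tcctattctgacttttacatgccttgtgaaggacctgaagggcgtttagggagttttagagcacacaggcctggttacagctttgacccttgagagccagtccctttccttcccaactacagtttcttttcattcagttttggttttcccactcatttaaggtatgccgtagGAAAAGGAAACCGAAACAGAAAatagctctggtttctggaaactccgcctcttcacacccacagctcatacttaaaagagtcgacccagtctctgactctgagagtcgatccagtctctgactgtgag
Ifit1: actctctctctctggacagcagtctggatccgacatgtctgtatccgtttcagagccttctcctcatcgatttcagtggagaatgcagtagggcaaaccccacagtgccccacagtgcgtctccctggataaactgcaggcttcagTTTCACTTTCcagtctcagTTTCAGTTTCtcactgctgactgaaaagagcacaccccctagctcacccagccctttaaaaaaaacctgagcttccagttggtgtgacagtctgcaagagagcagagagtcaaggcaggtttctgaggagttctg
The windows of *Oasl1*, *Irf7* and *Irf9*, which also rose, held no match. A match is a string of letters and was not tested as a binding site, nor was any link between the motif and the rises.

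Antigen presentation genes, which the cell uses to display peptides on MHC class I, moved less. Of 15 measured 4 rose and 1 fell, with a median of 0.29. *Tap1*, the peptide transporter, rose by 0.57 (7.06, 7.08 and 7.15 against 7.77, 7.57 and 7.65, adjusted p = 0.0082), and *H2-Q4*, a class I gene, fell by 0.58 (14.04, 14.09 and 14.21 against 13.61, 13.51 and 13.47, adjusted p = 0.0115). The rises of *H2-D1* (0.86) and *Psmb9* (0.65), a subunit of the immunoproteasome, had no overlap between groups but each lost its call when 1 array was left out. For *H2-D1* this was so without siNEG replicate 1 or 2 or any siPINC1.0/1.6 array (highest adjusted p = 0.0861), and for *Psmb9* without siNEG replicate 2 or 3 or siPINC1.0/1.6 replicate 1 or 2 (highest adjusted p = 0.131). Class I genes are near copies of each other, and their probes may share signal. The count of 4 higher fell to 1 to 3 when 1 array was left out, 1 without siPINC1.0/1.6 replicate 1 or 2, and to 1 without both dim arrays.

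Most proliferation genes rose. Of 29 measured 22 rose and none fell, with a median of 1.01, and 26 had a positive log2 fold change. *Rrm2*, the ribonucleotide reductase subunit that makes DNA precursors, read 11.16, 11.03 and 10.96 in siNEG cells and 12.39, 12.59 and 12.43 in siPINC1.0/1.6 cells, a rise of 1.42 (SE 0.09, adjusted p = 0.00053). *Ccne1*, cyclin E1 of the entry into S phase, read 8.41, 8.13 and 8.19 against 9.65, 9.64 and 9.48, a rise of 1.35 (SE 0.09, adjusted p = 0.000623). *Mcm5*, part of the helicase that opens replication origins, read 9.82, 9.93 and 9.73 against 11.10, 11.19 and 11.12, a rise of 1.31 (SE 0.07, adjusted p = 0.000435). Genes outside DNA replication were among those that rose. *Bub1b*, of the spindle checkpoint, rose by 1.21 (7.40, 7.45 and 7.37 against 8.62, 8.67 and 8.55, adjusted p = 0.000246), and *Ccnd1*, cyclin D1, by 0.87 (11.11, 11.12 and 11.11 against 12.00, 11.93 and 12.01, adjusted p = 0.000309). *Mki67*, the Ki-67 antigen of dividing cells, rose by 0.85 (adjusted p = 0.00185). The largest rise, that of *Cdc6* (1.5), which loads the helicase, rested on a probe above background on 1 of 3 siNEG arrays, and its call ended whichever 1 array was left out (highest adjusted p = 0.0999). The cell cycle inhibitors *Cdkn1a* (0.43), *Cdkn2a* (−0.21) and *Cdkn2b* (−0.21) did not pass. Between 20 and 21 of the genes passed when 1 array was left out, and 19 without both dim arrays. In RNA from a whole culture, a change in the number of cells of one kind and a change in RNA per cell cannot be told apart.

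Among genes around the ERK kinases, a growth factor ligand and several targets of ERK rose. Of 25 genes for EGF receptor ligands, receptors and targets of ERK, 7 rose and none fell, with a median of 0.43. The ligand epiregulin, *Ereg*, read 6.61, 6.65 and 6.28 against 7.67, 7.68 and 7.46, a rise of 1.09 (SE 0.11, adjusted p = 0.00314). The ETS transcription factors *Etv4* (1.07, adjusted p = 0.000884) and *Etv5* (0.92, adjusted p = 0.00204) rose, as did *Fos* (0.64, adjusted p = 0.00107), all of them genes that ERK activity induces. *Etv5* read 9.83, 9.74 and 9.62 against 10.64, 10.66 and 10.64. The receptors *Egfr* (−0.03), *Erbb2* (−0.02) and *Erbb3* (−0.08) did not pass. *Dusp4*, a phosphatase of ERK, rose by 1.33, a call that ended without siNEG replicate 1 or 2 or siPINC1.0/1.6 replicate 1 or 2 (highest adjusted p = 0.0713).

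Chemokine and cytokine genes followed, 6 of 25 higher and none lower, with a median of 0.26. *Cxcl5*, a neutrophil attractant, read 6.24, 6.50 and 6.35 in siNEG and 7.85, 8.29 and 8.04 in siPINC1.0/1.6 cells, a rise of 1.70 (SE 0.13, adjusted p = 0.00119). *Cxcl1*, which shares its receptor, read 7.93, 7.92 and 7.96 against 9.10, 9.24 and 9.06, a rise of 1.20 (SE 0.10, adjusted p = 0.00181). *Cxcl2* also had a call, but was not well above background in either group. *Il6* was not well above background in siNEG cells and was at least 2.46-fold higher (3.95, 2.80 and 3.44 against 5.73, 5.81 and 5.51), a call lost without siPINC1.0/1.6 replicate 1 or 2 (highest adjusted p = 0.0521). Also unstable were *Cxcl10* (0.99), lost without siNEG replicate 1 or siPINC1.0/1.6 replicate 1 or 2 (highest adjusted p = 0.0631), and *Ccl5* (0.53), lost without any 1 siNEG array or siPINC1.0/1.6 replicate 1 or 2 (highest adjusted p = 0.117). The count of 6 fell to 3 without siNEG replicate 1, to 4 without siNEG replicate 2, to 2 without siPINC1.0/1.6 replicate 1 or 2, and to 3 without both dim arrays. *Tnfaip6*, a hyaluronan-binding protein induced by inflammatory cytokines, was at least 1.96-fold higher, a call lost without siNEG replicate 2 (adjusted p = 0.0528).

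Stress keratins rose most often, while the simple and basal keratins had no common direction, with 2 of 9 higher, 1 lower and 6 without a call. Of 10 stress and suprabasal keratins 5 rose and none fell, with *Krt6a* (1.74, adjusted p = 0.000885), *Krt16* (1.39, adjusted p = 0.000416) and *Krt17* (1.25, adjusted p = 0.00181) beside *Krt6b*, all keratins of the wound edge. *Krt16* read 9.01, 8.92 and 9.14 against 10.44, 10.36 and 10.44, and *Krt6a* 7.85, 8.0 and 8.32 against 9.88, 9.71 and 9.81. *Krt6a* and *Krt6b* are close copies, and their probes may share signal. Of the keratins of the basal layer, *Krt5* rose by 0.59 (13.72, 13.81 and 13.88 against 14.42, 14.29 and 14.46, adjusted p = 0.00681). *Krt14* rose by 0.55 (adjusted p = 0.0497), a call lost without siNEG replicate 1 or 2 or any siPINC1.0/1.6 array (highest adjusted p = 0.162), and *Krt15* overlapped between the groups, with a difference of −0.16 (adjusted p = 0.404). The luminal keratin *Krt18* fell by 0.56 (14.81, 14.81 and 14.85 against 14.17, 14.23 and 14.40, adjusted p = 0.00568), while its partner *Krt8* differed by −0.13 and did not pass (adjusted p = 0.575).

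Of 26 genes of the cornified envelope and squamous differentiation 5 rose and none fell, with a median of 0.22. *Sprr1a*, a precursor that is cross-linked into the envelope, rose by 2.08 (6.12, 6.19 and 5.53 against 8.14, 7.83 and 8.12, adjusted p = 0.00188), and *Cnfn*, cornifelin, by 1.17 (4.66, 4.57 and 4.71 against 6.07, 5.86 and 5.52, adjusted p = 0.00734). *S100a9*, a subunit of calprotectin, was at least 1.33-fold higher, a call that ended whichever 1 array was left out (highest adjusted p = 0.143). *Sprr1b* had a call but was not well above background in either group, and the late envelope genes *Lor* (0.89) and *Ivl* (−0.25) did not pass.

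**Figure D2:**
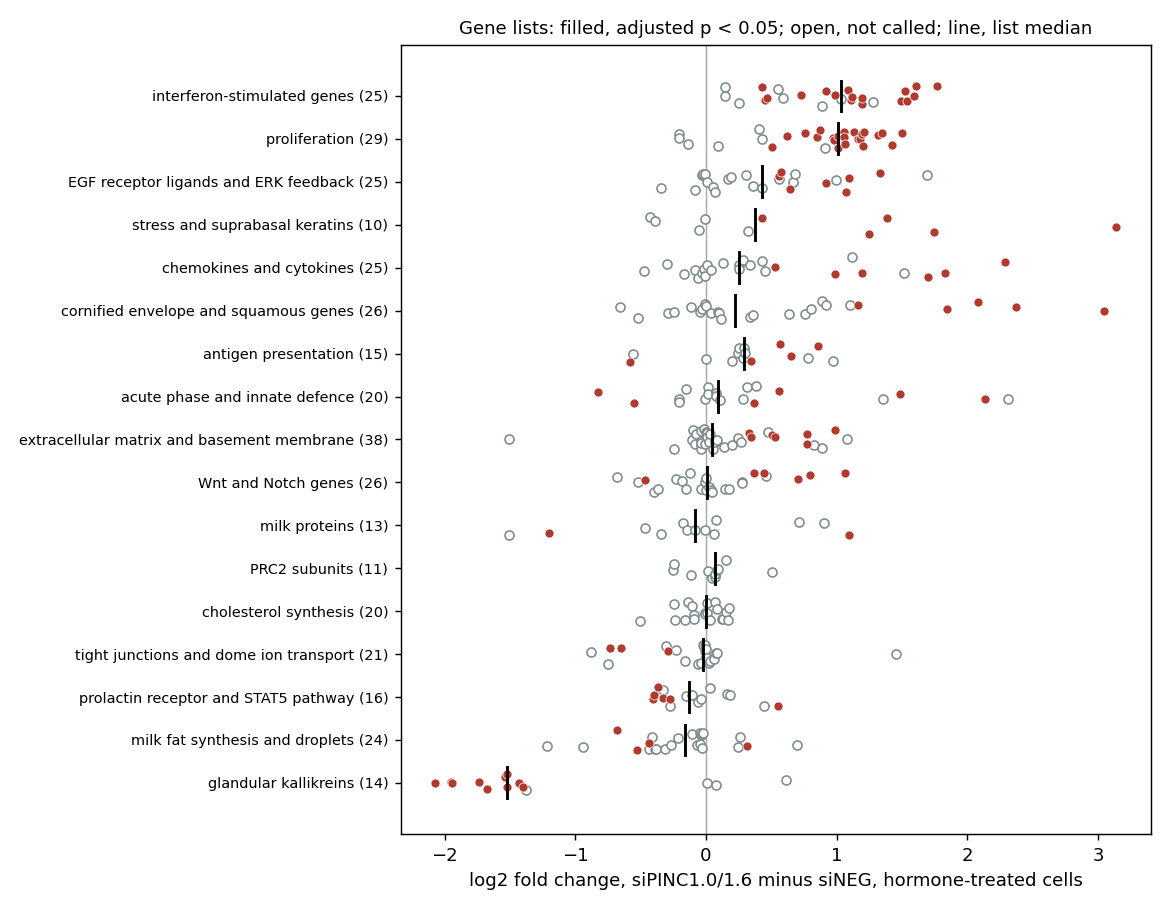
Log2 fold change of siPINC1.0/1.6 against siNEG in +LH cells for every measured gene of 17 lists, 1 point a gene, filled where the adjusted p was under 0.05, with a line at the list's median. All 25 interferon genes and 26 of 29 proliferation genes lie to the right of 0 with medians of 1.03 and 1.01, 11 of 14 glandular kallikreins to the left with a median of −1.52, and PRC2 and cholesterol genes hold no filled point.

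Genes that carry the prolactin signal were slightly lower. Of 16 genes of the pathway 5 fell and 1 rose, with a median of −0.13. *Stat5b* read 11.10, 11.11 and 11.09 in siNEG and 10.75, 10.68 and 10.77 in siPINC1.0/1.6 cells, a fall of 0.37 (SE 0.05, adjusted p = 0.00964). *Jak2* read 10.23, 10.31 and 10.19 against 9.86, 9.79 and 9.87, a fall of 0.40 (SE 0.05, adjusted p = 0.00728). *Stat5a* fell by 0.40 (10.46, 10.32 and 10.43 against 10.03, 9.99 and 9.98), a call lost without siPINC1.0/1.6 replicate 2 (adjusted p = 0.0525). The groups did not overlap for any of the 3, although each change was small. *Prlr*, the prolactin receptor itself, differed by −0.15 and did not pass (adjusted p = 0.387). *Cish* (−0.27), a STAT5-induced inhibitor, and *Elf5* (−0.33), the ETS factor of alveolar cells, lost their calls whichever 1 array was left out (highest adjusted p = 0.116 and 0.125). *Socs3*, another inhibitor, rose by 0.55, a call kept only without siPINC1.0/1.6 replicate 2 (highest adjusted p = 0.0879). The count of 5 lower became 3 when 1 array was left out, except without siPINC1.0/1.6 replicate 2, where it was 2, and 0 without both dim arrays.

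Milk protein genes did not move together. Of 13 measured 1 rose and 1 fell, with a median of −0.08. *Csn2* read 10.98, 10.76 and 11.08 in siNEG cells and 9.69, 9.48 and 10.06 in siPINC1.0/1.6 cells, a fall of 1.20 or 2.30-fold (SE 0.17, adjusted p = 0.0128). Its call was lost without siNEG replicate 1 or siPINC1.0/1.6 replicate 1 (highest adjusted p = 0.0571), with fold changes from −1.36 to −1.07. *Ltf*, lactoferrin, the iron-binding protein of milk, read 9.64, 9.63 and 9.65 against 10.62, 10.70 and 10.89, a rise of 1.1 or 2.14-fold (SE 0.09, adjusted p = 0.00122) that kept its call without any 1 array. *Csn3*, κ-casein, overlapped between the groups (9.49, 9.46 and 9.65 against 9.29, 9.31 and 9.47, adjusted p = 0.527). *Wap*, whey acidic protein, was well above background on none of the 6 arrays (2.34, 2.01 and 2.71 against 2.53, 3.20 and 3.48). *Pip*, prolactin-induced protein, stood at 16.09, 16.03 and 16.17 against 16.18, 16.15 and 16.14.

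The STAT motif TTCNNNGAA was in 6 of the 11 milk protein windows (54.5%) and in 9.55% of all genes, on either strand. Besides *Csn2*, the windows of *Csn1s1*, *Csn1s2a*, *Glycam1*, *Pigr* and *Pip* held it, and none of those genes had a call. A match was not tested as a binding site, nor was any link to the prolactin pathway genes. The window of *Csn2* (chr5:87699376-87699675, minus strand) holds 1 match, in capitals, and is shown because *Csn2* fell.
Csn2: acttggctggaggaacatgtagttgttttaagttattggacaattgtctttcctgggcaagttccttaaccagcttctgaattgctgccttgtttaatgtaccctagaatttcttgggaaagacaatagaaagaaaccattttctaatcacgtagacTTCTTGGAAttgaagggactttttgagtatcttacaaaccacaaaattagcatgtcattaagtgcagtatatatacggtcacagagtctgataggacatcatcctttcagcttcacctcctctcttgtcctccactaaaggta

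Milk fat genes leaned lower, 20 of 24 with a negative log2 fold change and a median of −0.16, but 3 fell and 1 rose by the test. *Plin2*, which coats lipid droplets, read 13.93, 14.02 and 13.81 against 13.19, 13.25 and 13.26, a fall of 0.68 (SE 0.06, adjusted p = 0.00236). *Srebf1*, the transcription factor of fatty acid synthesis, read 10.40, 10.30 and 10.33 against 9.84, 9.77 and 9.82, a fall of 0.53 (SE 0.06, adjusted p = 0.00385). *Mfge8*, a protein of the milk fat globule, fell by 0.44, a call lost without any 1 siNEG array or siPINC1.0/1.6 replicate 1 or 2 (highest adjusted p = 0.0794). *Dgat2*, of triglyceride synthesis, rose by 0.32, a call lost whichever 1 array was left out (highest adjusted p = 0.0836). *Fasn*, fatty acid synthase, differed by −0.26 and overlapped between groups (adjusted p = 0.28). Without both dim arrays 1 milk fat gene fell. None of 20 cholesterol synthesis genes passed.

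Among 21 tight junction and ion transport genes, which seal the epithelium and drive the fluid under domes, 3 fell and none rose. *Atp1b1*, the β subunit of the sodium pump, read 14.85, 14.94 and 14.63 against 14.08, 14.09 and 14.05, a fall of 0.73 (SE 0.10, adjusted p = 0.00898). *Slc12a2*, the sodium-potassium-chloride cotransporter, read 12.01, 12.13 and 12.07 against 11.44, 11.33 and 11.48, a fall of 0.65 (SE 0.06, adjusted p = 0.00295). The fall of *Cldn8* (0.29), a claudin of the junction, lost its call whichever 1 array was left out (highest adjusted p = 0.148). The sodium channel subunits *Scnn1a* (0.06) and *Scnn1g* (−0.02) did not pass. Without both dim arrays 1 of the 21 genes fell.

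Targets of the glucocorticoid receptor numbered 2 lower and none higher of 17. *Lcn2*, lipocalin 2, fell by 0.55 (14.08, 13.95 and 14.12 against 13.44, 13.47 and 13.60, adjusted p = 0.0119), a call lost without siNEG replicate 1 or siPINC1.0/1.6 replicate 1 or 2 (highest adjusted p = 0.0523). *Mt1*, metallothionein 1, fell by 0.49, a call kept only without siNEG replicate 3 (highest adjusted p = 0.0722). Without siNEG replicate 1, or siPINC1.0/1.6 replicate 1 or 2, none of the 17 passed.

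A list of 24 genes took in genes the study named, its differentiation markers among them, together with 5 PRC2 subunits, of which *Eed* and *Rbbp4* were added here. Since the study chose many of the genes on these samples, their counts are not independent evidence. Of the 24, 6 rose and 4 fell. *Ednra*, the receptor of endothelin 1, read 9.51, 9.38 and 9.35 in siNEG and 8.43, 8.56 and 8.48 in siPINC1.0/1.6 cells, a fall of 0.92 (SE 0.06, adjusted p = 0.000753). Its ligand *Edn1* overlapped between the groups (8.32, 8.31 and 8.37 against 8.30, 8.38 and 8.42, adjusted p = 0.879). *Chil1*, a chitinase-like secreted protein also named *Chi3l1*, fell by 0.82 (7.74, 7.73 and 7.63 against 6.95, 6.94 and 6.74, adjusted p = 0.00425). *Itgb3*, integrin β3, rose by 0.37 (9.30, 9.21 and 9.27 against 9.61, 9.60 and 9.69, adjusted p = 0.00984). *Dlk2*, a Delta-like protein, rose by 0.45 (10.71, 10.56 and 10.78 against 11.25, 11.07 and 11.07, adjusted p = 0.0497), a call lost whichever 1 array was left out (highest adjusted p = 0.152). *Cp*, ceruloplasmin, the copper-carrying protein of plasma and milk, rose by 0.56, a call kept only without siNEG replicate 2 (highest adjusted p = 0.0919). *Igfbp2* (0.45), *Mib2* (−0.23), *Mal* (−0.07), *Clu* (0.08) and *Cidea* (−0.04) did not pass. The count of 6 higher and 4 lower became 3 and 2 without siNEG replicate 1 or siPINC1.0/1.6 replicate 1, 4 and 3 without siNEG replicate 2 or siPINC1.0/1.6 replicate 2, 3 and 3 without siNEG replicate 3 or siPINC1.0/1.6 replicate 3, and 2 and 2 without both dim arrays.

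No PRC2 subunit gene changed by the test. *Ezh2*, the histone methyltransferase, read 10.49, 10.52 and 10.43 against 10.58, 10.71 and 10.61 (log2 difference 0.15, SE 0.06, adjusted p = 0.272). *Suz12* (0.07, adjusted p = 0.823), *Eed* (0.02, adjusted p = 0.99), *Rbbp7* (0.07, adjusted p = 0.68) and *Rbbp4* (0.09, adjusted p = 0.454) likewise did not pass. The median of the 11 measured subunits was 0.07.

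Wnt ligands changed in both directions. Of 26 Wnt and Notch genes 5 rose and 1 fell. *Wnt10a* read 8.72, 8.70 and 8.73 against 9.93, 9.68 and 9.75, a rise of 1.07 (SE 0.07, adjusted p = 0.000614), and *Wnt7b* 7.65, 7.54 and 7.57 against 8.49, 8.22 and 8.43, a rise of 0.79 (SE 0.08, adjusted p = 0.00246). *Wnt5b* read 10.42, 10.39 and 10.33 against 9.94, 9.83 and 9.97, a fall of 0.47, a call lost without siNEG replicate 2 (adjusted p = 0.0505). *Wnt4*, which acts downstream of progesterone, read 9.69, 9.67 and 9.64 against 10.56, 10.12 and 10.43, a rise of 0.70 (SE 0.11, adjusted p = 0.0192) whose call was kept only without siPINC1.0/1.6 replicate 2 (highest adjusted p = 0.0756). The groups of all 4 were separate. *Axin2* (−0.04), a common read-out of Wnt signalling, and *Hes1* (−0.68), one of Notch, did not pass. The count of 5 higher fell to 2 when siNEG replicate 1, 2 or 3 or siPINC1.0/1.6 replicate 1 or 3 was left out, and to 3 without siPINC1.0/1.6 replicate 2.

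Of 38 matrix and basement membrane genes 7 rose and none fell, with a median of 0.04. *Timp3* (15.10, 15.22 and 15.32 against 16.03, 15.89 and 16.05, adjusted p = 0.00637) and *Timp1* (9.29, 9.25 and 9.46 against 10.20, 10.06 and 10.06, adjusted p = 0.00721), both inhibitors of matrix proteases, rose by 0.78 and 0.77. *Col3a1* (0.99), collagen III, lost its call whichever 1 array was left out (highest adjusted p = 0.115), and *Col18a1* (0.53) without siNEG replicate 1 or 2 or siPINC1.0/1.6 replicate 1 or 3 (highest adjusted p = 0.0728). The count fell from 7 to between 2 and 4 when 1 array was left out, 2 without siPINC1.0/1.6 replicate 1 and 4 without siNEG replicate 3, and to 0 without both dim arrays.

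Growth factor carriers of the IGF axis split, with 1 of 12 genes higher and 2 lower. *Igfbp3* read 6.56, 6.45 and 6.34 against 7.70, 7.57 and 7.57, a rise of 1.16 (SE 0.09, adjusted p = 0.000947). *Igfbp5*, whose protein binds IGF in the milk-secreting gland, read 17.14, 17.45 and 17.17 against 16.47, 16.52 and 16.55, a fall of 0.74 (SE 0.09, adjusted p = 0.00567). *Igf2r* fell by 0.34, a call lost without siNEG replicate 1 or 2 or siPINC1.0/1.6 replicate 1 or 2 (highest adjusted p = 0.1). Of the remaining lists, 4 of 20 acute phase and innate defence genes rose and 2 fell, among them *Serpina3f*, a protease inhibitor that rose by 2.14 (adjusted p = 0.0171). That call was lost without siNEG replicate 1 or 2 or siPINC1.0/1.6 replicate 1 or 2 (highest adjusted p = 0.0748), the serpin A3 genes are close copies, and *Saa2*, another of the 4, was not well above background in either group. In the endoplasmic reticulum stress and amino acid response 2 of 20 genes rose, *Psat1*, of serine synthesis, by 0.52 (adjusted p = 0.00586). Among 21 metallothionein, heme and oxidative stress genes 1 rose (*Gsta4*) and 1 fell (*Mt1*), among 12 integrins 1 rose (*Itgb3*), besides the lower *Itga8* above, which was not on that list, and among 7 endothelin genes 1 fell (*Ednra*).

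Few markers of cell types had a call, and *Krt5*, *Krt14*, *Krt18*, *Elf5* and *Col3a1* were already counted in the lists above. The median log2 fold change was −0.14 over the luminal and 0.02 over the basal markers. A summed signal mostly reflects its brightest markers. Of the 14 luminal markers 3 fell (*Kit*, *Krt18* and *Elf5*) and none rose, and their summed linear signal went from 80955 to 83808 in siNEG cells to 62183 to 67948 in siPINC1.0/1.6 cells. Of the 11 basal markers 3 rose (*Krt5*, *Krt14* and *Vim*) and none fell, with sums that overlapped, 460852 to 499237 and 464601 to 487482. *Vim*, vimentin, rose by 0.48 (11.45, 11.40 and 11.49 against 11.84, 11.97 and 11.94, adjusted p = 0.0086), and none of the 11 passed without both dim arrays. Of 9 fibroblast markers *Col3a1* rose and *Pdgfra* fell by 0.45 (adjusted p = 0.00907), and their sums were 5051 to 5498 and 6126 to 6897. No adipocyte, immune or endothelial marker passed, with 4 of 7, 2 of 8 and 3 of 6 well above background on none of the 6 arrays. The immune markers summed to 4878 to 5518 and 3829 to 4087, the adipocyte ones to 176 to 539 and 204 to 248, and the endothelial ones to 1459 to 2128 and 1513 to 1772. What part the makeup of the cultures had in the keratin, milk and matrix results was not tested.

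The effect of siPINC1.0/1.6 differed between hormone-treated and untreated cells for 1778 of 55681 probes (3.19%), 1158 of them with the more positive and 620 with the more negative change in +LH cells (limma, interaction over the 15 knockdown arrays). This split rested on the −LH siPINC1.0/1.6 arrays, with 924 more positive and 939 more negative without replicate 1 of them, and 937 and 832 without replicate 2, while without siNEG −LH replicate 2 there were 1149 and 410. In the −LH arrays alone 1650 probes (2.96%) were called, 1.52% of all probes higher and 1.45% lower. Every −LH array lay on the slide that held siNEG +LH replicate 1, and the other +LH knockdown arrays lay on another. Hormone state and slide thus cannot be fully told apart. The study's hormone medium also lacked the EGF of its growth medium and held another serum, while insulin was in both. Which medium the −LH cells had is not given in the sources used here, nor is the time after transfection of the +LH arrays. These cannot be told apart from the hormones, and with or without hormones below names only the labelled states. With a slide term in a fit of all 24 arrays the interaction was called for 2113 probes. Among the interferon genes the effect differed for 16 of 25, all 16 more positive in +LH cells, against 6.15% of all genes called in either direction. Their median log2 fold change was −0.40 in −LH cells and 1.03 in +LH cells, where 4 fell and 1 rose in the former and 17 rose in the latter. *Isg15* read 12.73 and 12.89 in −LH siNEG cells and 12.09 and 12.03 in −LH siPINC1.0/1.6 cells, a fall of 0.75 (adjusted p = 0.0391), and its interaction was 2.24 (SE 0.26, adjusted p = 0.00123). *Oas2* went from 5.24 and 5.02 to 3.85 and 3.77 without hormones (−1.32, adjusted p = 0.0415), an interaction of 2.91 (SE 0.32, adjusted p = 0.000865). *Ifit1* went from 7.67 and 7.61 to 6.75 and 6.52 (−1.0, adjusted p = 0.039), an interaction of 2.19 (SE 0.20, adjusted p = 0.000282). All 3 genes fell without hormones and rose with them. *Irf7* differed by −1.29 in −LH cells without passing (adjusted p = 0.148), with an interaction of 2.40 (adjusted p = 0.00177).

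Proliferation genes showed 20 of 29 interactions, 19 of them more positive in +LH cells, where their median was 1.01 against 0.16 in −LH cells. *Rrm2* stood at 14.38 and 14.27 in −LH siNEG cells and 14.47 and 14.49 in −LH siPINC1.0/1.6 cells (0.15, adjusted p = 0.432). *Bub1b* stood at 10.43 and 10.49 against 10.48 and 10.59 (0.08, adjusted p = 0.654). Both were thus higher in untreated cells of either siRNA group than in any +LH array, and the interactions were 1.27 (SE 0.13, adjusted p = 0.000572) and 1.13 (SE 0.08, adjusted p = 0.000108). From −LH to +LH the siNEG level of the list moved by a median of −2.37, a value that shares the siNEG +LH arrays with the knockdown effect.

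*Klk1b5* was not well above background in any −LH array (3.81 and 3.72 against 4.06 and 3.85), so the difference in its effect, −2.13 (SE 0.26, adjusted p = 0.00158), rests on the +LH arrays. The same held for *Csn2*, at 1.97 and 1.97 against 1.95 and 1.95 in −LH cells, whose interaction of −1.18 lost its call without any 1 of the 4 −LH arrays (highest adjusted p = 0.0617). *Krt6b* rose in both states, by 1.29 in −LH cells (12.05 and 12.01 against 13.44 and 13.21, adjusted p = 0.0297), and rose 1.85 further in +LH cells (SE 0.14, adjusted p = 0.000119). *Etv5* reversed, from 13.54 and 13.36 to 12.61 and 12.69 in −LH cells (−0.80, adjusted p = 0.041) against its rise in +LH cells, an interaction of 1.72 (SE 0.13, adjusted p = 0.000119). *Arc*, an immediate early gene, reversed too, from 10.38 and 10.06 to 8.43 and 8.60 (−1.70, adjusted p = 0.0339) without hormones and by 1.38 upward with them (adjusted p = 0.00454).

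**Figure D3:**
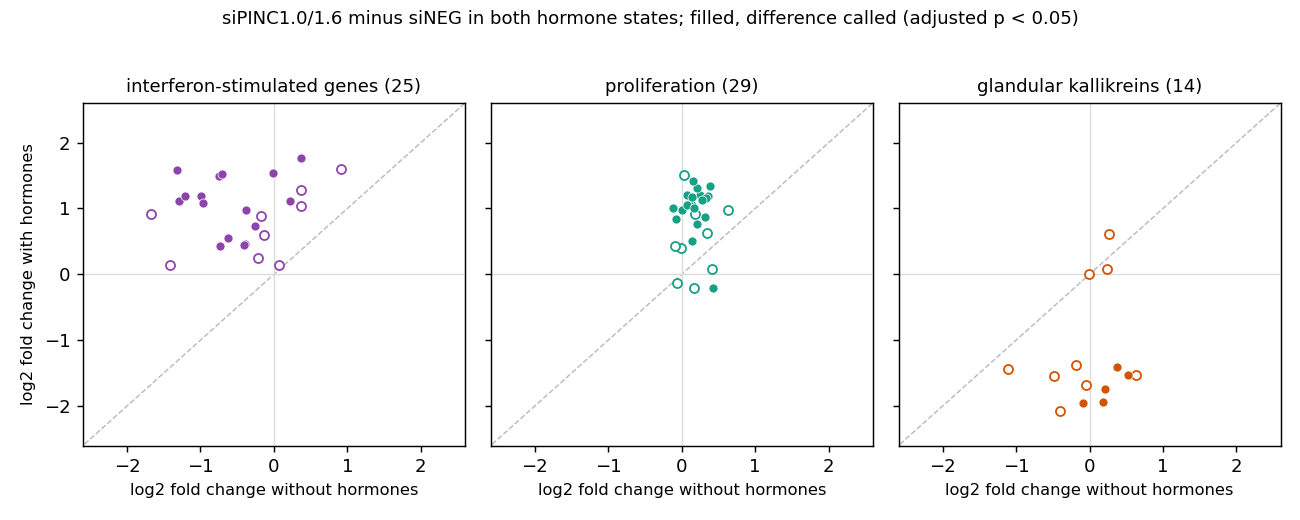
Log2 fold change of siPINC1.0/1.6 against siNEG in −LH cells (horizontal axis) and in +LH cells (vertical axis) for the genes of 3 lists; filled points differ between the states by the interaction test and the dashed line marks equal effects. Most interferon genes lie above the line with negative −LH values, most proliferation genes above it with −LH values near 0, and most kallikreins below it.

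The contrast ran the other way, or lay in the −LH cells, for other genes. *Edn1* was not well above background in −LH siNEG cells (3.89 and 3.89), read 6.94 and 6.65 in −LH siPINC1.0/1.6 cells, and overlapped between the groups in +LH cells, an interaction of −2.88 (SE 0.11, adjusted p = 3.24e-06). *C3*, the central complement protein, rose by 2.54 in −LH cells (11.71 and 11.15 against 14.03 and 13.91, adjusted p = 0.0328) and by 0.37 in +LH cells, the latter a call lost whichever 1 array was left out (highest adjusted p = 0.109). *Lcn2* stood at 12.50 and 12.00 against 13.32 and 13.36 in −LH cells (1.09, adjusted p = 0.0748) and fell in +LH cells, an interaction of −1.64 (adjusted p = 0.001). The chemokine and cytokine list had 7 interactions toward −LH and 2 toward +LH, with a −LH median of 1.04 beside 0.26. *Krt15*, a basal keratin, fell by 3.27 without hormones (12.48 and 12.65 against 9.28 and 9.32, adjusted p = 0.0188) and overlapped between the groups with them (15.64, 15.69 and 15.47 against 15.40, 15.45 and 15.49). *Csn3* fell by 1.83 without hormones (6.96 and 6.35 against 4.74 and 4.91, adjusted p = 0.048), an interaction of 1.65 (adjusted p = 0.00317). With n = 2 in each −LH group, these values rest on few arrays.

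The siRNA pair against all splice forms gives another knockdown in the same +LH state. siPINC1.0/1.6 and siPINC share 1 siRNA and differ in the other, and in +LH cells 509 of 55681 probes (0.914%) differed between them, 246 higher in siPINC1.0/1.6 and 263 lower. Against the same siNEG arrays siPINC changed 379 probes (0.681%) and siPINC1.0/1.6 2140 (3.84%), comparisons that share their controls and are only set side by side. All 26 named genes called between the siRNA sets lost their call with the replicate number as a block, and all 26 by the methods' t-test. In a fit of only the arrays of both groups 23 of them lost it, and 18 without both dim arrays. The calls between the sets given below hold for the main fit. Of 14 kallikreins 8 were lower with siPINC1.0/1.6 than with siPINC, beside 1.8% of all genes called in either direction. *Klk1b5* read 8.40, 8.78 and 8.36 with siPINC, a difference of −1.70 (SE 0.12, adjusted p = 0.00568), and *Klk1b26* 7.19, 7.36 and 6.78, a difference of −1.75 (SE 0.17, adjusted p = 0.00925). Against siNEG those siPINC arrays differed by −0.25 and −0.32 (adjusted p = 0.564 and 0.619). For *Klk1* (−1.47), *Klk1b4* (−1.46) and *Klk1b22* (−1.56) the call between the siRNA sets ended when 1 array was left out. These were any 1 siPINC1.0/1.6 array or siPINC replicate 1 for *Klk1* (highest adjusted p = 0.0959), any 1 of the 6 for *Klk1b4* (0.125), and siPINC1.0/1.6 replicate 1 or any siPINC array for *Klk1b22* (0.111).

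The rises differed as well. *Stfa1* was below background on all siPINC arrays (1.89, 2.02 and 1.90), *Krt6b* read 10.06, 9.77 and 9.78, between both other groups and 1.58 below siPINC1.0/1.6 (SE 0.09, adjusted p = 0.00546), and *Cxcl5* read 6.33, 6.53 and 6.61, a difference of 1.57 (SE 0.13, adjusted p = 0.00736). *Ramp3*, a partner of the calcitonin receptor-like receptor, read 5.95, 5.68 and 6.14 with siPINC and 7.39, 7.34 and 7.24 with siPINC1.0/1.6, a difference of 1.40 (SE 0.12, adjusted p = 0.00726). *Lgr6*, an R-spondin receptor, read 5.03, 4.74 and 5.05 against 6.20, 6.12 and 6.32, a difference of 1.27 (SE 0.10, adjusted p = 0.00655). Among the proliferation genes 15 of 29 were higher with siPINC1.0/1.6 than with siPINC, for *Mcm5* by 0.77 (10.28, 10.34 and 10.48 with siPINC, adjusted p = 0.00925). Only 1 of 25 interferon genes differed, *Oasl1* by 0.92 (6.22, 6.12 and 6.32 with siPINC), a call that ended whichever 1 array was left out (highest adjusted p = 0.0758). The interferon median against siNEG was 0.61 with siPINC and 1.03 with siPINC1.0/1.6.

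Other genes were lower with siPINC1.0/1.6 than with siPINC. *Csn3*, which overlapped between siPINC1.0/1.6 and siNEG, rose with siPINC by 0.81 (10.19, 10.32 and 10.51, adjusted p = 0.027), and lay 0.99 lower with siPINC1.0/1.6 than with siPINC, a call lost without siPINC1.0/1.6 replicate 1 or 2 (highest adjusted p = 0.0593). *Wnt5b* rose with siPINC by 0.51 (10.93, 10.79 and 10.94, adjusted p = 0.0275) and fell with siPINC1.0/1.6, a difference of −0.98 (SE 0.06, adjusted p = 0.00546). *Elf5* read 10.90, 11.04 and 10.99 with siPINC and lay 0.77 lower with siPINC1.0/1.6 (SE 0.07, adjusted p = 0.00736). *Kit* (13.82, 13.71 and 13.92) lay 1.1 lower with siPINC1.0/1.6 (SE 0.09, adjusted p = 0.00736), *Adamtsl2* (7.65, 7.42 and 7.64) 1.42 lower (adjusted p = 0.00655), and *Lyzl4* (7.74, 7.52 and 7.53) 1.51 lower (adjusted p = 0.00655). The probe chosen for *Lyzl4* against siNEG lay 1.36 lower and did not pass (adjusted p = 0.0553). *Csn2* read 11.03, 11 and 11.34 with siPINC, 1.38 above siPINC1.0/1.6, a call that ended without any 1 array except siPINC1.0/1.6 replicate 3 (highest adjusted p = 0.0929). With the replicate number as a block no probe differed between the siRNA sets at an adjusted p under 0.05, while 4888 did at an unadjusted p under 0.05.

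**Figure D4:**
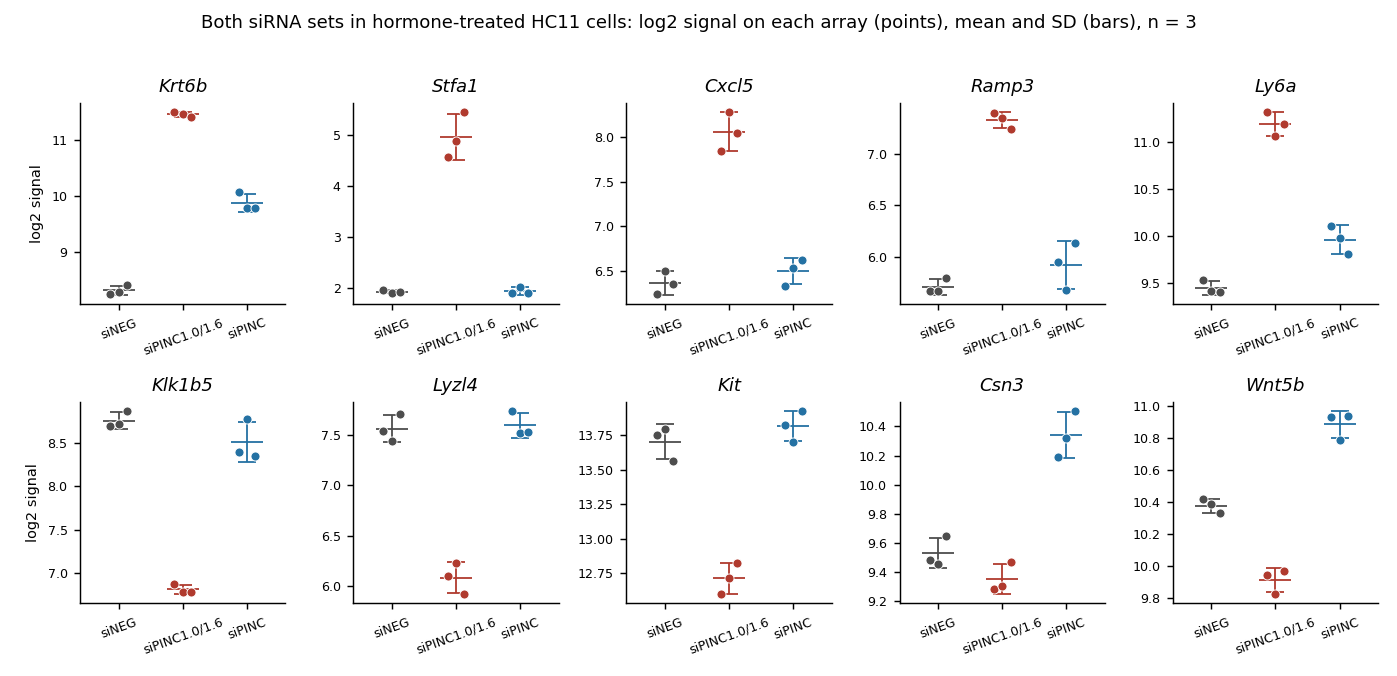
Log2 quantile normalized signal of 10 genes on the 3 siNEG, 3 siPINC1.0/1.6 and 3 siPINC arrays of +LH cells, with group means and SDs; axes differ between panels and do not start at 0. The siPINC arrays lie with siNEG for *Stfa1*, *Cxcl5*, *Klk1b5*, *Lyzl4* and *Kit*, between both groups for *Krt6b*, and on the far side of siNEG for *Csn3* and *Wnt5b*.

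Cells that overexpress *mPINC1.0* and *mPINC1.6* share no array with the knockdown and were compared with LeGO-GFP cells, where 16857 of 55681 probes (30.3%) were called. The *mPINC* probe was 7.37 log2 units higher there. *Klk1b5*, well above background on every array of both groups, was 4.53 lower in overexpressing cells (adjusted p = 4.43e-06). *Csn2* was not well above background in LeGO-1.0/1.6 cells, and *Kit* was 4.62 lower with overexpression, while both were lower with knockdown. Proliferation genes had positive medians in both, 1.13 with overexpression and 1.01 with knockdown. *Ltf* went apart, 4.31 lower with overexpression against its rise of 1.1, as did *Ly6a*, 2.19 lower against its rise of 1.73, and *Ednra*, 0.56 higher against its fall of 0.92. The study picked *Ly6a* and *Ednra* from these same arrays for changing in opposite directions, so their contrast here is not independent evidence.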

How the data were processed

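Total RNA from HC11 cells was labelled with Cy3 and hybridised by the authors to 1-colour Agilent mouse 8×60K arrays, and the deposited scanner files hold linear intensity values from Feature Extraction 11.0.1.1 (background-subtracted processed signal). The deposited series matrix holds log2 values whose ranks equal those of the authors' scanner intensities minus background (Spearman's rho of 1 on each array). Its column medians were 5.2304 to 5.2479, it was not centred, and it served as an alternative. Arrays report intensities, not counts, so precision is limited by their number.

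The log2 of the processed signal was quantile normalized over the 24 arrays, outlier spots were dropped (161 to 280 on each of the 6 arrays), and spots were averaged to 55681 probes. Groups came from the labels. siPINC1.0/1.6 was compared with siNEG, and with siPINC, in a fit of the 9 +LH knockdown arrays with limma 3.58.1 in R 4.3.3, and the hormone interaction in a fit of the 15 knockdown arrays. P-values were Benjamini-Hochberg adjusted over all probes, and an adjusted p under 0.05 was called. Adjusted p-values in the text are from limma. Symbols came from the paper's tables (455 probes) and RefSeq (26161 probes), 20169 symbols in all. For each gene 1 probe stood, and *Lyzl4* is also given on another. The members and gene lists were chosen with earlier results of these data known. Genes named were those with the largest changes among called probes in each direction, called members of the lists, and genes the study named; some list members without a call were named after their values were seen. Alternatives covered background correction (normexp, offset 50), 75th percentile scaling, the filter on dim probes, the fitted arrays, the slide, the replicate block, the series matrix, the methods' t-test and leaving out arrays. The methods' t-test was called here at an adjusted p under 0.05. The study instead set its own p-value threshold together with a fold change cut, so these counts are not those of the study. On simulated data the fit recovered 82% of log2 changes of 1 and 93% of changes of 2. Those changes were put only into probes well above background on all 9 arrays. The simulated noise was independent, with no dim array or slide effect. The shares therefore do not say how many changes were recovered in the real data or on dim probes.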

Additional observations from a re-analysis of the deposited data

Results flagged for a closer look

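The genes here responded differently to siPINC1.0/1.6 in +LH and −LH cells by limma's interaction test over the 15 knockdown arrays, with 2 arrays in each −LH group. Values are the log2 effect in +LH cells minus that in −LH cells. More positive with hormones were *Krt71* (3.63), *Ifi27l2a* (3.62), *Krt15* (3.11), *Arc* (3.08), *Pgm5* (3.03), *Mroh4* (2.98), *Oas2* (2.91) and *Ifit3b* (2.87). The interferon genes *Irf7* (2.40), *Isg15* (2.24) and *Ifit1* (2.19), *Krt6b* (1.85), *Etv5* (1.72), *Csn3* (1.65), *Rrm2* (1.27) and *Bub1b* (1.13) followed. More negative with hormones were *Prl2c5* (−5.07), *Il1a* (−4.22), *C1s2* (−3.60), *Csf3* (−3.26), *Serpinb10* (−3.23), *Baalc* (−3.16), *Il18rap* (−3.15) and *Mettl7b* (−3.15), then *Edn1* (−2.88), *C3* (−2.17), *Klk1b5* (−2.13), *Lcn2* (−1.64) and *Csn2* (−1.18). The first 8 of these, *C1s2* excepted, were well above background on none of the 6 +LH arrays, and none of the 8 was in −LH siNEG cells, so their values are set in part by probes near background and give no order. *Klk1b5* and *Csn2* were not well above background in −LH cells, nor *Krt71* in siNEG +LH or siPINC1.0/1.6 −LH cells, *Edn1* in −LH siNEG cells and *Ifit3b* in −LH siPINC1.0/1.6 cells.

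*Ifi27l2a*, an interferon-induced gene, went from 8.80 and 9.52 to 6.73 and 6.76 in −LH cells. *Il1a*, interleukin 1α, was not well above background in −LH siNEG cells (1.89 and 1.83) and read 6.00 and 5.20 in −LH siPINC1.0/1.6 cells. The calls of *Krt71* and *Ifit3b* ended without single −LH arrays, for *Krt71* any 1 of the 4 or siPINC1.0/1.6 +LH replicate 1 or 2 (highest adjusted p = 0.0974) and for *Ifit3b* siNEG −LH replicate 2 (adjusted p = 0.0629). That of *Csn2* ended without any 1 of the 4 −LH arrays (highest adjusted p = 0.0617). The *mPINC* probe itself differed by 1.31 (adjusted p = 0.0223), as it fell in −LH cells and not in +LH cells.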

How the results depend on the processing

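Of 103 named genes called between siPINC1.0/1.6 and siNEG, 70 kept their call without any 1 array and 33 did not, and 37 kept it in every alternative. The methods' t-test lost 55 of the 103 calls, leaving out both dim arrays 45 and the replicate block 31. None of the 103 changed direction under any alternative run, but leaving out arrays could not reverse a gene whose groups do not overlap. Against the 2140 probes called, 75th percentile normalization gave 1033 (63.1% higher), bright probes only 4007 (47.6% higher, against 54.4% of the 2140), all 24 arrays in 1 fit 3498, the series matrix values 1072, the methods' t-test 733, only the arrays of both groups 1023 and the slide term, which equals leaving out siNEG replicate 1, 1200. Leaving out 1 array gave 1027 to 1904, fewest without siNEG replicate 2. Leaving out both dim arrays, an alternative chosen after seeing the data, gave 735 (74% higher). Same-number deviations correlated at −0.105, 0.146 and 0.031, and different-number ones at −0.224 to 0.195, which cannot decide whether the samples were paired. Whether same-numbered arrays shared a culture day is not given in the sources used here. With the replicate block 850 probes were called (66% higher). For the interaction, 75th percentile normalization gave 1145 and the series matrix values 1024 of 1778. For siPINC1.0/1.6 against siPINC (509), 75th percentile normalization gave 141, bright probes only 1297, a trended robust prior 841, all 24 arrays 1196, all 24 with a slide term 1423, the replicate block 0 (4888 at an unadjusted p under 0.05), the series matrix values 161, the methods' t-test 36, only the arrays of both groups 24, the slide term 280, leaving out 1 array 147 (without siPINC replicate 3) to 312, and both dim arrays 100. The cause of these shifts was not tested.

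Direction changed only for genes without a call. Without both dim arrays *Edn1* was −0.0013, *Suz12* −0.0063 and *Rbbp7* −0.0083. *Eed* was −0.0082 with normexp, −0.0058 with the series matrix values and −0.055 to 0.061 without 1 array, and *Cidea* −0.107 to 0.041 without 1 array. Probes near background, such as that of *mPINC* in +LH cells, limit what can be measured, and 75th percentile normalization moved the median of all probes to −0.097.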
